A study of Rattus norvegicus with 4 samples.

Results

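Atlastins, reticulons and REEPs are membrane proteins that give the endoplasmic reticulum (ER) its network of tubules. Rows of the expression table were taken by gene symbol for 10 of them, Atl1, Atl2, Atl3, Rtn1, Rtn2, Rtn3, Rtn4, Reep1, Reep3 and Reep5, and all 10 were present among 18699 genes. The genes were selected on family membership with the fold changes of the carfilzomib comparison already known, so their changes with the drug are given as a description and support nothing. The words rose and fell follow the call made over all genes and carry no more weight than that. The REEP genes Reep2, Reep4 and Reep6 stand outside the set and are given with the other genes of ER shape.

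Reticulons and REEPs carry hydrophobic hairpins that sit in the outer leaflet of the ER membrane and bend it into tubules. Atlastins are GTPases of the dynamin class that join tubules to each other and so build the junctions of the network. In heart muscle the same membrane system forms the sarcoplasmic reticulum, the calcium store, and Reep5 is known for its part in keeping that store in shape. The long form of Rtn3, and Atl3, also act as receptors that bring ER tubules to autophagosomes, and Atl1, Reep1 and Rtn2 are known as genes of hereditary spastic paraplegia.

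The cells were wild-type ventricular myocytes of Sprague Dawley rats aged 1 to 3 days, kept as primary cultures in medium with 15% serum and 0.1 mM bromodeoxyuridine, an agent against dividing non-muscle cells that both groups received. One group was given vehicle and the other 1 µM carfilzomib, an irreversible proteasome inhibitor, each for 24 h and each with 2 libraries. The comparison was made to learn how carfilzomib harms heart cells. The labels do not say whether the 2 libraries of a group are separate cultures, so their spread may be technical.

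Library totals lay between 18655450 and 18884333 estimated counts. Over all genes 14519 were tested, of which 60.7% were called with edgeR's quasi-likelihood test at an adjusted p below 0.05, 30.6% higher and 30.1% lower with carfilzomib. All 8 cardiomyocyte markers were present in every library, and all 8 were called lower. Their sum was 27102 to 27228 CPM with vehicle and 5647 to 5863 CPM with carfilzomib (CPM, counts scaled to normalised library size). The falls were uneven, with log2 fold changes from -3.79 for Myh6 to -0.36 for Tnnt2 and a median of -2.10. The 8 fibroblast markers, also all lower, summed to 27685 to 28241 CPM and then 14787 to 15511 CPM, and the 5 smooth muscle markers to 3824 to 3967 CPM and then 1302 to 1346 CPM. Sums of the 6 macrophage markers were 40.2 to 43.9 CPM and 22.7 to 23.7 CPM. The 6 endothelial markers summed to 71.2 to 71.3 CPM and 70.0 to 70.8 CPM. Those of the 6 Schwann cell markers were 15.5 to 17.2 CPM and 15.1 to 15.9 CPM. Among the endothelial markers Tek was called higher and Kdr and Vwf lower, and among the Schwann cell markers Erbb3 was called higher. In such bulk samples fewer cells of a type and less RNA of its markers per cell cannot be told apart. The part of these shifts in the values below was not tested.

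Among the 10 genes, 6 rose and 2 fell, while 2 did not pass, against 60.7% of all tested genes called in either direction. The groups did not overlap for 9 of the 10, as for 79.9% of all tested genes. The median log2 fold change of the 10 was 0.26, beside 0.00 over all tested genes. None of the 3 REEPs in the set rose, though Reep2, outside it, rose by 1.32 ± 0.10 (SE) on the log2 scale. All 3 atlastins rose, as did 3 of the 4 reticulons, beside 30.6% of all tested genes called higher. The call of 1 of these reticulons, Rtn2, was lost in 6 of 11 alternatives, among them DESeq2 and the replicate block, and without it 5 of the 10 genes rose. All 10 genes passed the filter on low counts, and the lowest estimated count of any of them was 120, for Atl1 in vehicle replicate 1.

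**Figure D1:**
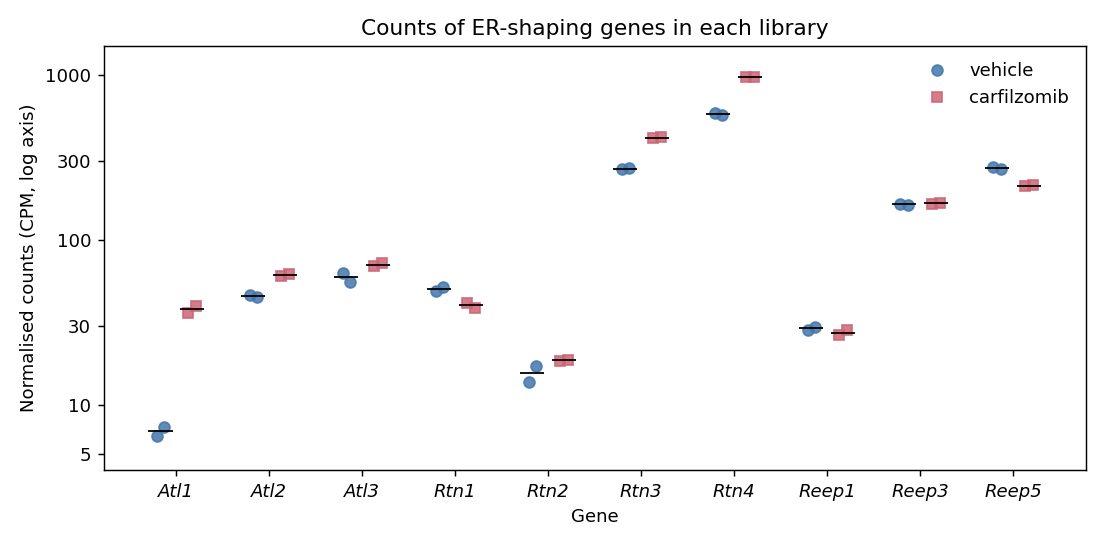
Normalised counts (CPM, log axis) of the 10 genes in the 2 vehicle libraries (circles) and the 2 carfilzomib libraries (squares), with a line at each group mean. Atl1 moves from 6.46 and 7.36 CPM to 36.1 and 39.6 CPM, Rtn4 and Rtn3 are also well apart, and the Reep3 points overlap.

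Atl1, the atlastin best known from neurons, had 6.46 and 7.36 CPM in the vehicle libraries and 36.1 and 39.6 CPM in the carfilzomib libraries. Both treated libraries were about as far from vehicle as each other, and the groups were well separated. Atl1 rose 5.47-fold, with a log2 fold change of 2.45 ± 0.10 (SE, n = 2 per group), the largest change among the 10 genes. Atl2, a broadly expressed atlastin, was at 46.2 and 44.8 CPM with vehicle and at 60.0 and 61.9 CPM with carfilzomib. Atl2 rose 1.34-fold, by a log2 fold change of 0.42 ± 0.06 (SE). Atl3, the atlastin that also serves as a receptor for the removal of ER tubules, had 62.6 and 55.5 CPM with vehicle and 69.4 and 72.1 CPM with carfilzomib. Its vehicle libraries lay further apart than its treated ones, the groups did not overlap, and Atl3 rose 1.20-fold, by 0.26 ± 0.07 (SE) on the log2 scale.

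Per unit of gene length, the summed level of the 3 atlastins was 37.3 and 35.3 FPKM (fragments scaled to gene length and library size, the authors' values) in the vehicle libraries and 56.5 and 59.6 FPKM in the carfilzomib libraries. Atl1 made up 7.42% ± 0.92 (SD, n = 2) of that sum with vehicle and 25.9% ± 0.75 with carfilzomib. The share of Atl3 went from 49.0% ± 1.48 to 37.2% ± 0.14 and that of Atl2 from 43.6% ± 0.56 to 36.8% ± 0.61. Atl1 was far below the other two with vehicle and nearer to them with carfilzomib.

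The 3 atlastins were picked for a look at upstream sequence with their rises known, and a shared cause was not tested. Their upstream sequences are printed, from the promoter table of RefSeq on build GRCr8, which is not the build of the deposited counts. The table held 9 of the 10 genes, all but Rtn4. The search covered the 250 bases before each listed start, and only the part outside the annotated gene is printed, 5′ to 3′ on the gene's plus strand. Capitals mark a match to an antioxidant response element (TGACNNNGC) in Atl1, a CCAAT box in Atl2 and the core TGACGTG in Atl3, each read on both strands; the last was searched after the sequences were seen.
Atl1, chr6:94112974-94113148: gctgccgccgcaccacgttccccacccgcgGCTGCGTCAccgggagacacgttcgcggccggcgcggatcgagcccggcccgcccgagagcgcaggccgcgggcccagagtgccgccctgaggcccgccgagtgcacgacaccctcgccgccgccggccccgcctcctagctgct
Atl2, chr6:20891034-20891219: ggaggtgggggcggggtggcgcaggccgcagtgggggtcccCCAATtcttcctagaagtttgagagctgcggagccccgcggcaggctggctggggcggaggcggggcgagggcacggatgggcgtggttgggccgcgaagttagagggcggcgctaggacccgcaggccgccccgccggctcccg
Atl3, chr1:214109877-214110126: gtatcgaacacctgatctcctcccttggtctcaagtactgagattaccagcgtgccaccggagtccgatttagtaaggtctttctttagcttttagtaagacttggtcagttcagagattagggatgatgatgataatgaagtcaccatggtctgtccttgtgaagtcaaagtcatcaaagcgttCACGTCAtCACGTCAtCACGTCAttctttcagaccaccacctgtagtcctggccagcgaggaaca

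The 3 sequences differ in composition. GC content over the 250 bases was 77.2% for Atl1, 68.8% for Atl2 and 46.4% for Atl3, beside a median of 52.0% over 27457 promoters. Over the 9 genes it ran from 46.4% for Atl3 to 81.2% for Reep3. Motif matches were not compared with promoters of like GC content. The antioxidant response element matched 3 of the 9 genes, Atl1, Rtn3 and Reep3, and 10.2% of all promoters. Of those 3 genes Atl1 and Rtn3 rose and Reep3 did not pass. For Rtn3, as for Reep1 and Reep5, all 250 bases lay inside the annotated gene. Matches counted here for Rtn3, Reep1 and Reep5 are therefore not upstream of the annotated gene. Atl1, Atl2 and Rtn2 had 175, 186 and 82 of the 250 bases outside the annotated gene, and the rest inside it. The core TGACGTG stood 3 times in Atl3, beginning 65, 57 and 49 bases before the start, in none of the other 8 genes, and in 1.59% of all promoters. A cAMP response element (TGACGTCA) was found in Atl2, past the printed part and so inside the annotated gene, and in 1.70% of all promoters. CCAAT was found in 4 of the 9 genes, Atl2, Rtn1, Reep1 and Reep3, and in 34.3% of all promoters. The GC box (GGGCGG) matched 7 of the 9 and 32.4% of all promoters, and is left in lower case. Some of its matches in Atl1 and Rtn2 also lay inside the annotated gene. No match was found in the 9 windows for the unfolded protein response element TGACGTGG, the ER stress element, the amino acid response element TGATGNAAN, the heat shock element or the TATA box TATAAA. These occurred in 0.55%, 0.0765%, 3.25%, 0.597% and 13.1% of all promoters. The ER stress element contains CCAAT, and TGACGTGG contains TGACGTG. A match is a match of letters and not a shown binding site.

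Rtn4, which encodes Nogo, a widely expressed reticulon, had 584 and 572 CPM with vehicle and 969 and 974 CPM with carfilzomib. The libraries of each group were close to each other, and Rtn4 rose 1.68-fold, with a log2 fold change of 0.75 ± 0.04 (SE). Rtn3 was at 270 and 271 CPM with vehicle and at 414 and 421 CPM with carfilzomib, and rose by 0.63 ± 0.04 (SE) on the log2 scale. In RefSeq, Rtn3 and Atl3 are next to each other among protein-coding genes, and both rose.

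Rtn1, a reticulon known from neurons and endocrine cells, moved the other way. Its levels were 48.6 and 51.7 CPM with vehicle and 41.4 and 38.8 CPM with carfilzomib, and it fell by 0.32 ± 0.06 (SE) on the log2 scale. Rtn2, a reticulon abundant in muscle, had 13.8 and 17.3 CPM with vehicle and 18.4 and 18.8 CPM with carfilzomib. The spread of Rtn2 between its vehicle libraries was larger than the step from vehicle replicate 2 to the treated libraries, and its log2 fold change was 0.26 ± 0.11 (SE). The call of Rtn2 was near the threshold, with an edgeR adjusted p of 0.0453, and was lost in 6 of 11 alternatives. Its adjusted p was 0.26 with DESeq2, 0.0503 with the stricter low-count filter and 0.0523 with the replicate block. On leaving out 1 library the edgeR adjusted p was 0.385 for vehicle replicate 1, where the log2 fold change was 0.11, and 0.103 and 0.134 for carfilzomib replicates 1 and 2.

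The summed level of the 4 reticulons was 343 and 341 FPKM with vehicle and 522 and 529 FPKM with carfilzomib, a ratio of means of 1.54. Rtn4 supplied 49.98% and 50.06% of it in the vehicle libraries and 53.9% and 53.5% in the carfilzomib libraries. The share of Rtn3 was 37.7% ± 1.09 (SD) with vehicle and 38.9% ± 0.46 with carfilzomib. Rtn1 went from 8.32% ± 0.40 to 4.12% ± 0.18. The reticulon sum was therefore mostly Rtn4 and Rtn3 in all 4 libraries. Reads were summed per gene, so the long and short forms of Rtn1, Rtn3 and Rtn4 are not told apart.

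Reep5, the REEP of the sarcoplasmic reticulum, had 277 and 269 CPM with vehicle and 211 and 216 CPM with carfilzomib. Both treated libraries lay below both vehicle libraries, and Reep5 fell by 0.35 ± 0.04 (SE) on the log2 scale. Reep3, which with Reep4 clears ER membrane from chromosomes in dividing cells, was at 165 and 163 CPM with vehicle and at 165 and 167 CPM with carfilzomib. The Reep3 groups overlapped, and the change of 0.02 ± 0.04 (SE) on the log2 scale did not pass. Reep1, which links ER tubules to microtubules, had 28.5 and 29.8 CPM with vehicle and 26.4 and 28.2 CPM with carfilzomib. The treated libraries of Reep1 were the lower ones, but the change of -0.10 ± 0.07 (SE) on the log2 scale did not pass.

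Outside the 10 genes, the other REEPs went in different directions. Reep2, a REEP best known from neurons, had 9.10 and 9.91 CPM with vehicle and 25.6 and 21.9 CPM with carfilzomib. Reep2 rose by 1.32 ± 0.10 (SE) on the log2 scale (edgeR adjusted p = 4.3e-08). Reep4 went from 31.1 and 33.2 CPM to 27.0 and 24.2 CPM and fell by 0.33 ± 0.08 (SE) on the log2 scale, with an edgeR adjusted p of 0.00154. Reep6, at 3.02 and 3.19 CPM with vehicle and 2.57 and 2.97 CPM with carfilzomib, did not pass. Over all 6 REEPs the summed level was 172 and 171 FPKM with vehicle and 156 and 155 FPKM with carfilzomib. Reep5 took 55.1% ± 1.13 (SD) of it with vehicle and 48.5% ± 1.10 with carfilzomib, and Reep2 2.97% ± 0.17 and 8.29% ± 0.87.

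**Figure D2:**
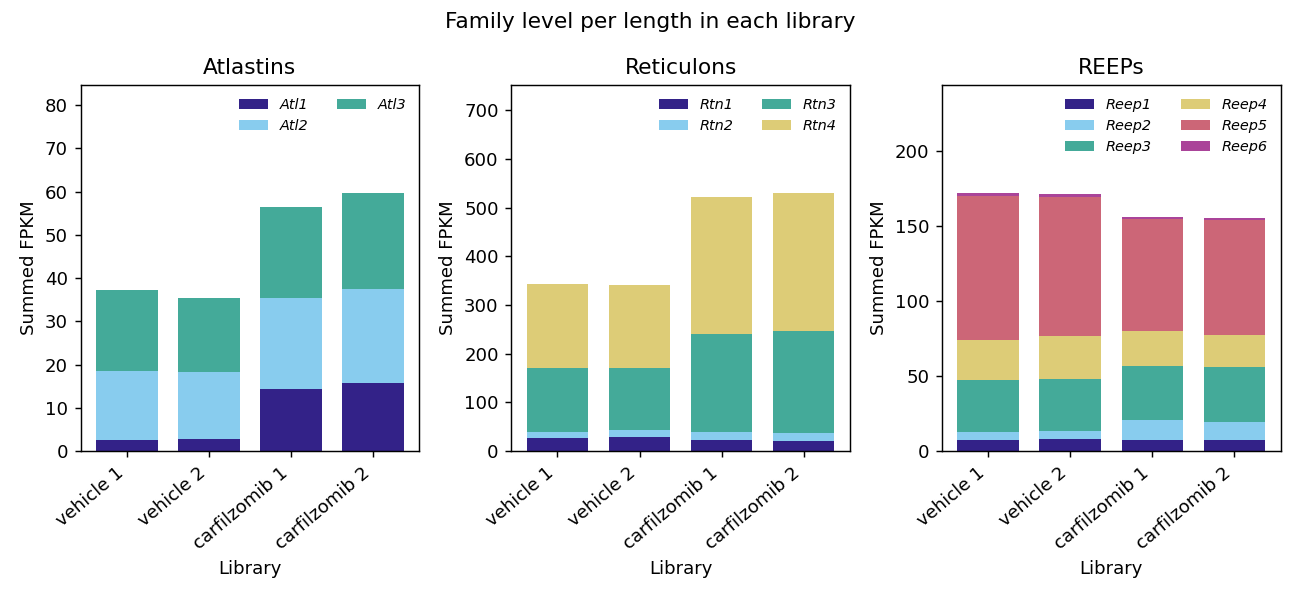
Summed level per gene length (FPKM, the authors' values) of the atlastins, reticulons and all 6 REEPs in each of the 4 libraries, with each gene as a segment of the bar. The atlastin sum goes from 37.3 and 35.3 to 56.5 and 59.6 with a wider Atl1 segment, the reticulon sum from 343 and 341 to 522 and 529, and the REEP sum from 172 and 171 to 156 and 155.

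**Figure D3:**
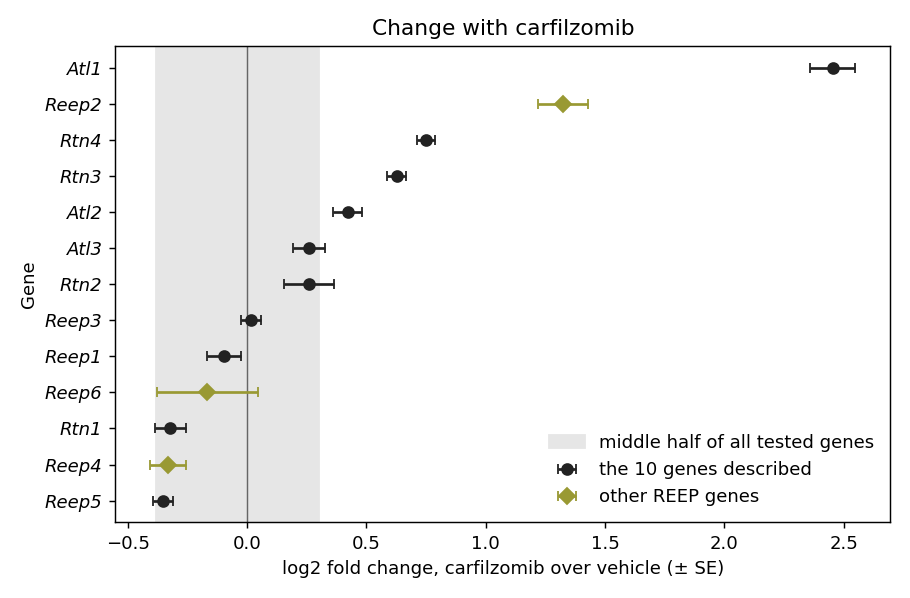
Log2 fold change, carfilzomib over vehicle, with its SE for the 10 genes (circles) and the other 3 REEPs (diamonds); the grey band spans the quartiles of all 14519 tested genes, -0.38 to 0.30. Atl1, Reep2, Rtn4, Rtn3 and Atl2 lie to the right of the band, and Atl3 and Rtn2, like all genes with negative values, have their points within it.

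Levels between genes were compared per length only. With vehicle, Rtn4 was the highest of the 10 at 170.9 ± 0.59 FPKM (SD, n = 2), then Rtn3 at 128.9 ± 4.33 and Reep5 at 94.4 ± 2.19 FPKM. Reep3, Rtn1, Atl3, Atl2 and Rtn2 followed, from 34.9 down to 13.5 FPKM, then Reep1 at 7.78 ± 0.21 and Atl1 at 2.69 ± 0.23 FPKM. No neighbours in that order had overlapping library values. With carfilzomib the first 8 places were held by the same genes, in the same order by group mean only. There, Rtn1, Atl3 and Atl2, at 21.7 ± 0.73, 21.6 ± 0.74 and 21.4 ± 0.45 FPKM, had overlapping values and could not be ordered. Atl1, at 15.1 ± 1.00 FPKM, stood above Reep1, at 7.47 ± 0.41 FPKM, the reverse of their places with vehicle.

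The authors' deposited table of genes with a q-value up to 0.0499 lists 7 of the 10 genes and omits Rtn2, Reep1 and Reep3. It gives Atl1 a log2 fold change of 2.46, Rtn4 0.75 and Rtn3 0.63. In the authors' deposited table Rtn1 and Reep5 are at -0.32 and -0.35. Of the other REEPs it lists Reep2, at 1.33, and omits Reep4 and Reep6.

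Other genes of ER shape were listed by their known role, with earlier results of these data known, 49 in all. The 48 that were matched were all tested. Of these 23 rose and 13 fell, and the other 12 did not pass. Their median log2 fold change was 0.13. The share called can be read beside the 30.6% higher and 30.1% lower over all tested genes.

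Of 16 factors of tubules, their fusion and their junctions, 11 rose and 1 fell, and the other 4 did not pass. The median was 0.25. Lnpk, which encodes lunapark, a protein that stabilises the junctions atlastins make, had 26.1 and 26.2 CPM with vehicle and 51.2 and 51.3 CPM with carfilzomib. Lnpk rose by 0.97 ± 0.06 (SE) on the log2 scale (edgeR adjusted p = 3.11e-09). Arl6ip5, a small membrane protein of the ER, rose by 0.83 ± 0.06 (SE). Tmcc3, a protein bound to tubule junctions, was the gene that fell, by 0.35 ± 0.12 (SE), from 13.2 and 11.7 to 8.91 and 10.7 CPM. The call of Tmcc3 was lost with DESeq2 and on leaving out either library numbered replicate 1, vehicle or carfilzomib, with adjusted p up to 0.22 and log2 fold changes as near to 0 as -0.22.

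Genes of flat ER sheets mostly went the other way, with 4 of 6 lower, 1 higher and 1 not called and a median of -0.32. Ckap4, which encodes the sheet spacer CLIMP-63, had 593 and 586 CPM with vehicle and 410 and 394 CPM with carfilzomib, and fell by 0.55 ± 0.04 (SE) on the log2 scale (edgeR adjusted p = 1.55e-08). Sec61a1, the pore of the protein translocon, fell by 0.37 ± 0.04 (SE). Ktn1, which encodes kinectin, a sheet protein and kinesin receptor, rose by 0.70 ± 0.05 (SE), from 104 and 98.7 to 162 and 166 CPM. Whether tubule and sheet genes differ from each other as lists was not tested.

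Receptors that bring ER to autophagosomes, apart from Rtn3 and Atl3, rose in 6 of 7 cases, and 1 did not pass. Their median log2 fold change was 0.46. Ccpg1, a receptor with a binding site for FIP200, went from 55.3 and 51.3 to 92.6 and 91.4 CPM. Ccpg1 rose by 0.79 ± 0.06 (SE) on the log2 scale (edgeR adjusted p = 2.53e-08). Calcoco1 rose by 0.62 ± 0.05 (SE). Retreg2, chosen after its values were seen as the receptor that did not pass, had 61.6 and 67.9 CPM with vehicle and 73.6 and 64.8 CPM with carfilzomib. Counting Rtn3 and Atl3 with them, 8 of 9 receptors were higher. Rtn3 and Atl3 belong to the 10 genes, and the other 7 were also listed with earlier results of these data known. Neither count adds support.

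Tethers that hold the ER to other membranes were split, with 4 of 10 higher, 3 lower and 3 not called and a median of -0.08. Vps13a, a lipid transfer protein, rose by 1.01 ± 0.07 (SE) and Esyt2, a tether to the plasma membrane, by 0.27 ± 0.04 (SE). Jph2, which encodes junctophilin, the protein that holds the sarcoplasmic reticulum to the T-tubules of heart muscle, had 304 and 308 CPM with vehicle and 122 and 121 CPM with carfilzomib. Jph2 fell by 1.33 ± 0.04 (SE) on the log2 scale, with an edgeR adjusted p of 1.36e-12.

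Most listed receptors and partners of Rtn4 were lower. Of 6 genes 4 were lower, 0 were higher and 2 were not called, with a median of -0.51. Rtn4rl1, a homologue of the Nogo receptor, fell by 0.41 ± 0.09 (SE), from 22.5 and 21.9 to 15.8 and 17.5 CPM. Lingo1, a co-receptor chosen after its values were seen, had 12.3 and 11.9 CPM with vehicle and 2.36 and 2.33 CPM with carfilzomib, a log2 fold change of -2.36 ± 0.15 (SE). Rtn4r, the Nogo receptor itself, also chosen after its values were seen, was at 1.35 and 1.19 CPM with vehicle and at 0.52 and 0.58 CPM with carfilzomib.

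**Figure D4:**
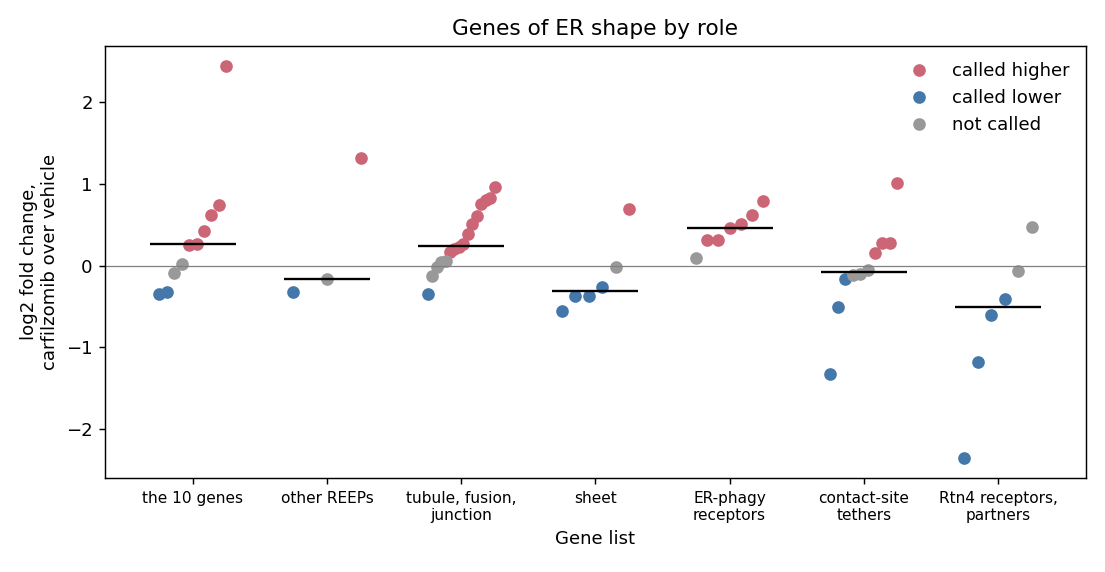
Log2 fold change, carfilzomib over vehicle, of each gene in the 10-gene set and in the 6 other lists of ER shape, coloured by the call over all tested genes, with a line at each list's median. Points lie mostly above 0 for tubule factors (median 0.25) and ER-phagy receptors (0.46) and mostly below 0 for sheet proteins (-0.32) and Rtn4 receptors and partners (-0.51).

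Atl1, Reep1 and Rtn1 are known for high levels in neurons, so neuron markers were set beside them. The 9 neuron markers summed to 49.2 and 55.4 CPM with vehicle and 87.1 and 80.8 CPM with carfilzomib. Nearly all of that sum was Tubb3, a neuronal tubulin, at 43.6 and 49.0 CPM with vehicle and 83.1 and 78.5 CPM with carfilzomib. Among the other markers, none was above 2.26 CPM in any library, and Elavl4, Syt1, Nefl and Gap43 were called lower. Elavl3, Snap25, Stmn2 and Rbfox3 were too low to test, with Rbfox3 at 0 in carfilzomib replicate 2, and no marker was at 0 in all 4 libraries. In the same libraries Atl1 rose, Rtn1 fell and Reep1 did not pass. Reep2, outside the 10 genes and also best known from neurons, rose by 1.32 ± 0.10 (SE) on the log2 scale. The part of neuron RNA in these values was not tested.

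Genes with the most similar course were sought among 9615 genes with a mean of at least 10 CPM, by the distance between log2 CPM centred over the 4 libraries. For Atl1 these were Abca2, Kif1a and Ptprn, at distances of 0.12, 0.14 and 0.15. Kif1a, a kinesin motor of neurons, went from 45.1 and 46.7 to 240 and 245 CPM. Ptprn, a protein of secretory vesicles, went from 196 and 212 to 1057 and 1045 CPM. For Reep5, the gene of the set with the largest fall, they were Nsd2, Ankrd52 and Abi2, all at distances up to 0.017. With 4 libraries in 2 groups the distance mostly reflects the size of the change between groups.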

How the data were processed

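RNA was sequenced from 2 vehicle and 2 carfilzomib libraries of cultured rat ventricular myocytes. Per the file headers, the authors deposited raw estimated counts and FPKM for each gene. About 29% of genes per library had decimals (more than 1e-06 from a whole number), and no source used here gives their origin. Of the 10 genes, Atl3, Rtn4, Reep3 and Reep5 had such decimals, so their reads may have been shared with other genes. The submitters' processing notes name the build Rnor_6.0 and, without roles, HISAT and Bowtie2, featureCounts 1.6.0, cutadapt 2.0, FastQC 0.11.8, R 3.3.2 and DESeq2. A deposited comparison table holds log2 fold changes, p-values and q-values from DESeq2, per the file headers. Columns named as control were taken as vehicle of the same number, and 10 columns were not used.

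Estimated counts were rounded. Genes passed filterByExpr (minimum count 10, minimum total 15), TMM factors were 0.987 to 1.01, and edgeR 4.0.16 in R 4.3.3 gave robust quasi-likelihood tests with Benjamini-Hochberg adjustment over all genes at 0.05. Each SE was obtained from the absolute log2 fold change and F, as their quotient after taking the root of F. The common biological coefficient of variation was 0.0465. Replicates differed beyond sampling noise (chi-square per degree of freedom 3.32 and 2.99) and were kept apart. Scripts were tested on simulated data. Alternatives were DESeq2 1.42.0, limma-voom (limma 3.58.1), RLE factors, library size alone, no filter, a stricter filter (at least 1 CPM in 2 libraries, total count at least 50), a replicate block, leaving out each library, genes with whole counts only, and TPM for the level order.

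The members, the lists of other genes and the markers were chosen with earlier results of these data known. Text names all 10 genes and Reep2, Reep4 and Reep6. From each other list, called genes with a mean of 10 CPM or more were ranked by change, and the first 2 in the more common direction and the first 1 in the opposite direction are named. Also named are the 3 genes nearest in course to the largest riser and faller. Rab3gap1 was not matched.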

Additional observations from a re-analysis of the deposited data

How the results depend on the processing

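Over the 11 alternatives the number of called genes was 6244 with DESeq2 and 7360 to 8900 with the others, against 8812. Of the 10 genes 7 or 8 were called each time, and 28 to 36 of the other 48 genes of ER shape; among those with whole counts only, 27 were called. The values of the 10 genes kept their direction and their side of the threshold in 104 of 110 gene and setting pairs. The other 6 were all for Rtn2, whose call was lost with DESeq2 (adjusted p = 0.26), the stricter filter (0.0503), the replicate block (0.0523) and without vehicle replicate 1 (0.385), carfilzomib replicate 1 (0.103) or carfilzomib replicate 2 (0.134). The cause was not tested. The order of levels with vehicle was the same for all 10 genes in TPM.

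With the replicate number as a block, 8229 genes, 7 of the 10 and 33 of the other 48 were called. Same-numbered libraries deviated together only weakly (r = 0.13 across 12244 genes, which are not independent), and the labels give no shared source for a number. With 2 libraries a group, where 1 was left out the lone library was assumed to vary like the other group. Intervals were not computed, and the lowest counts, those of Atl1 with vehicle, limit the precision of its fold change.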
